A study of Mus musculus with 11 samples.

Results

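Besides olfactory sensory neurons (OSNs), the main olfactory epithelium (MOE) holds sparse non-neuronal cells that bear microvilli. Some of them resemble ionocytes, epithelial cells rich in proton pumps and the chloride channel CFTR that depend on the forkhead factor Foxi1. Others resemble tuft cells, chemosensory cells that depend on the POU factor Pou2f3 and signal through phospholipase C and the cation channel Trpm5. The genes described here were the 9 markers of these cells named Ascl3, Foxi1, Cftr, Coch, Trpm5, Pou2f3, Plcb2, Avil and Sh2d6. Every probe set that the annotation of the Mouse Genome 430 2.0 array assigned to exactly 1 of these symbols was taken, which gave 12 of the 45101 probe sets. For the whole array, 18194 symbols had such a probe set.

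The arrays compared whole MOE from newborn mice (postnatal day 0) in which both alleles of Bcl11b had been knocked out throughout the body (KO) with MOE from wild type mice. Both came from crosses of heterozygous parents, and all were labelled BALB/c. There were 6 KO preparations, of which KO 3 and KO 6 were female and the other 4 male, and 5 wild type preparations, all male. The loss of Bcl11b was thus not limited to the MOE. Each preparation was hybridized to 1 array, and signals are given as deposited, scaled to GAPDH on each array.

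Bcl11b, a zinc finger transcription factor, was lower on every KO array, as labelled. On its brightest probe set the signal was between 560.5 and 1249.8 on the KO arrays and between 2694.3 and 4122.7 on the wild type arrays, a log2 change of -1.88 ± 0.17 (limma, SE; adjusted p = 1.2e-05). Median signals of whole arrays were 62 to 86.5 in KO and 56.6 to 85.7 in wild type. The ratio of the 3' to the 5' GAPDH probe set, a measure of RNA integrity, was highest on KO 3 (2.70) and KO 2 (2.42) and lay between 1.82 and 2.27 on the other arrays. Of 8 mature OSN markers 5 fell in KO and 0 rose (limma, adjusted p under 0.05 over all probe sets), and their summed signals were 6515 to 9119 in KO against 11960 to 15900 in wild type. These were Stoml3, Cnga4, Gnal, Umodl1 and Gng13 (log2 changes of -1.21, -1.04, -0.70, -0.92 and -0.82). From array signals of whole tissue, fewer cells of a type and less RNA per cell cannot be told apart. In tissue sections the paper counted fewer Omp-positive cells in the ventral KO MOE, but not in the dorsal MOE.

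None of the 9 genes passed the threshold in either direction. Over all 33662 tested probe sets 0.455% passed, and 6.92% had an unadjusted p under 0.05, against 1 of the 9 member probe sets. The median log2 change of the 9 was -0.066, beside 0.047 over all tested probe sets, and 4 of the 9 were positive. The 95% intervals of all 9 lay between -0.996 and 0.996. A log2 change here is KO minus wild type of log2(signal + 16), which understates the change of dim genes. The smallest adjusted p among the 9 was 0.619. In no case were the KO and wild type arrays separate, whereas the groups did not overlap in 1.29% of all tested probe sets.

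**Figure D1:**
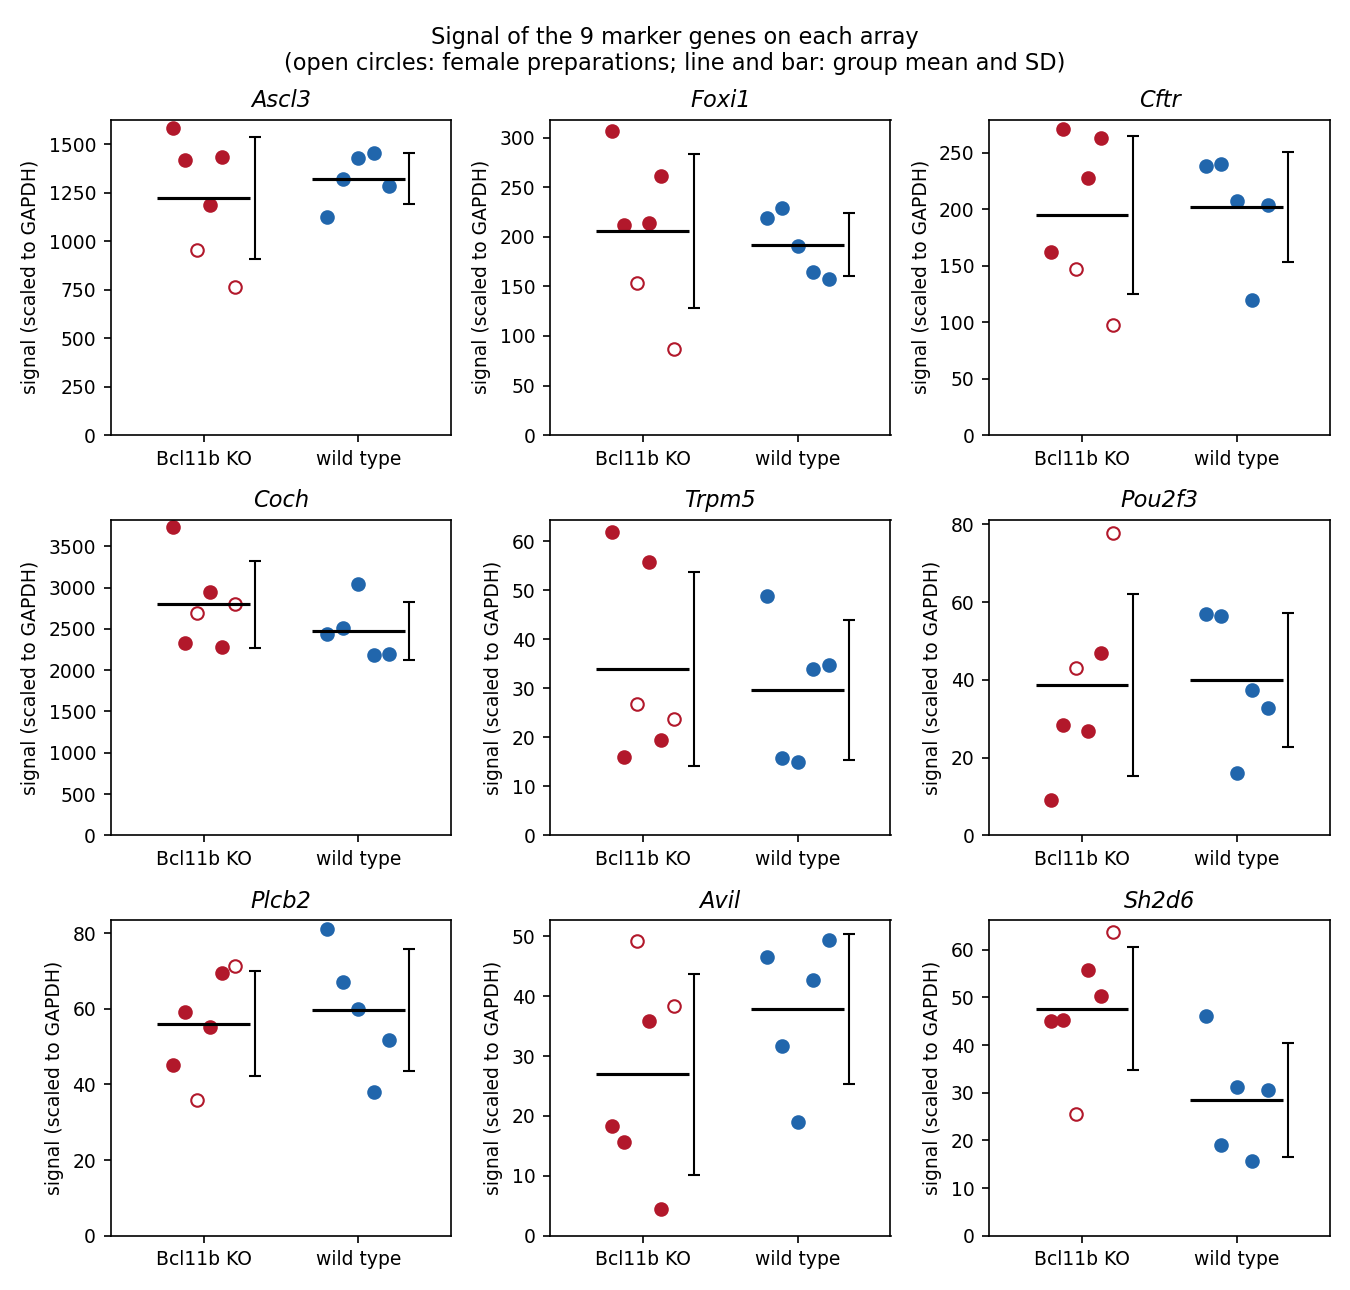
Signal (scaled to GAPDH, linear axes from 0) of each of the 9 genes on each array, with Bcl11b KO left of wild type; points are arrays, open circles are the female KO preparations, and line and bar give the group mean and SD. The groups overlap in every panel, and the female preparations KO 6 and KO 3 have the lowest Ascl3 (762.5 and 954.7), Foxi1 and KO Cftr signals.

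Ascl3, a basic helix-loop-helix factor of microvillar cells and of salivary duct progenitors, gave strong signals in both groups. Its signal in KO was 762.5 at the lowest, 1302.2 at the median and 1584.9 at the highest, and in wild type it was 1124.8, 1319.2, 1425.9, 1452.8 and 1284.5. The KO arrays enclosed the whole wild type range, from below it on KO 3 and KO 6 to above it on KO 1. The means were 1220 ± 316 in KO (SD, n = 6) and 1320 ± 131 in wild type (SD, n = 5), a log2 change of -0.15 ± 0.17 (limma, SE; adjusted p = 0.971; 95% interval -0.50 to 0.20).

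Foxi1, the forkhead factor that directs ionocyte differentiation in airway, kidney and inner ear, was measured at a lower signal. In KO the signal was 86.9 at the lowest, 213.1 at the median and 307.4 at the highest, and in wild type it was 219.3, 229.6, 190.7, 164.8 and 157.3. KO 6 and KO 3 were again the lowest of all 11 arrays, and KO 1 and KO 5 lay above every wild type array. The change on the log2 scale was 0.015 ± 0.24 (limma, SE; adjusted p = 0.998; 95% interval -0.49 to 0.52), and its sign turned under each of the 3 other scalings.

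The upstream sequences of Ascl3 and Foxi1 are shown because this pair had the highest correlation between arrays of the 36 pairs described below. Each is the 250 bases before the RefSeq start of the gene in GRCm38.p6, written 5′ to 3′ on the strand of the gene, with matches to the forkhead core TGTTTA on either strand in capitals.
Ascl3, chr7:109731733-109731982, minus strand: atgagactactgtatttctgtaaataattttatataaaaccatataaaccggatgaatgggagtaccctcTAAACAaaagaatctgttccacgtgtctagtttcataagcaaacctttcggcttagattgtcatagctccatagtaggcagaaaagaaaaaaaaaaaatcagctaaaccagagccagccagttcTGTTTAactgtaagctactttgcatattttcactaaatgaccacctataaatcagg
Foxi1, chr11:34208090-34208339, minus strand: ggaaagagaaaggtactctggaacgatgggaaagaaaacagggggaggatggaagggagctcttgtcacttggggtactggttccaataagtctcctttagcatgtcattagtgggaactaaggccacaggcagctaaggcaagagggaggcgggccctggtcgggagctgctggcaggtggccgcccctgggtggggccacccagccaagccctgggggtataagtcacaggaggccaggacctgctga
The Ascl3 window held 2 such matches and the Foxi1 window 0. Of the 8 members with a RefSeq window (Pou2f3 had no entry), Ascl3 alone held the forkhead core, which was found in 12.0% of all 32851 windows of this length. The E-box CAGCTG, in 13.0% of all windows, and the octamer ATGCAAAT bound by POU factors, in 1.6%, were in 0 of the 8. These motifs do not overlap one another, both strands were searched, and a match is a description of letters and not a binding site.

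Cftr, the chloride channel that is mutated in cystic fibrosis and is abundant in ionocytes, was measured by 1 of its 2 probe sets. On that probe set the KO arrays read 97.3 at the lowest, 195.15 at the median and 270.7 at the highest, and the wild type arrays read 238.1, 240.4, 207.5, 119.5 and 203.8. KO 6 gave the lowest value, wild type 4 the next and KO 3 the next, so that low arrays came from both groups. KO differed from wild type by a log2 change of -0.086 ± 0.24 (limma, SE; adjusted p = 0.99; 95% interval -0.59 to 0.42). The other Cftr probe set read at most 8.8 in KO and 6.6 in wild type, below the minimum mean signal of 20, and was not tested.

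Coch encodes cochlin, a secreted matrix protein best known from the inner ear that has been used as a marker of ionocyte-like cells. Its KO signals were 2283.6 at the lowest, 2742.5 at the median and 3737.9 at the highest, and its wild type signals were 2438.2, 2515.8, 3045.8, 2188.2 and 2199.2. Only KO 1 lay above the highest wild type array. The log2 change was 0.17 ± 0.13 (limma, SE; adjusted p = 0.937; 95% interval -0.11 to 0.44), and it was -0.00969 after scaling on spiked hybridization controls. On Coch, KO 3 (2688.9) and KO 6 (2796.1) were not low.

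Ascl3, Foxi1 and Cftr were thus lower in the 2 female KO preparations than in the male KO preparations. Ascl3 averaged 859 in female and 1410 in male KO preparations, Foxi1 120 and 249, and Cftr 122 and 231. Of the 16 other ionocyte genes tested (described below), KO 3 was the lowest array on 4 (25.0%) and KO 6 on 2 (12.5%). Beside the shares over all tested probe sets (28.1% and 6.55%), these counts say little about ionocyte genes in particular. The summed signal of the 16 genes was 10070 on KO 3, the lowest of the KO arrays, and 11450 on KO 6. In wild type it was 9061 to 11120. In a fit with sex as a covariate the female minus male terms were -0.70 ± 0.17 for Ascl3, -0.99 ± 0.25 for Foxi1 and -0.84 ± 0.28 for Cftr (limma, SE; adjusted p = 0.312, 0.34 and 0.459), so none passed. With males only the log2 changes between KO and wild type were 0.0857 for Ascl3, 0.34 for Foxi1 and 0.193 for Cftr, none past the threshold. These females were the only ones on the arrays, and their sex cannot be told apart from any other feature of the 2 preparations. KO 3 also had the highest GAPDH 3'/5' ratio and gave the lowest signal of all arrays on 28.1% of tested probe sets, whereas KO 6, with a ratio of 1.96, did so on 6.55%. The part of RNA integrity in these values was not tested.

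**Figure D2:**
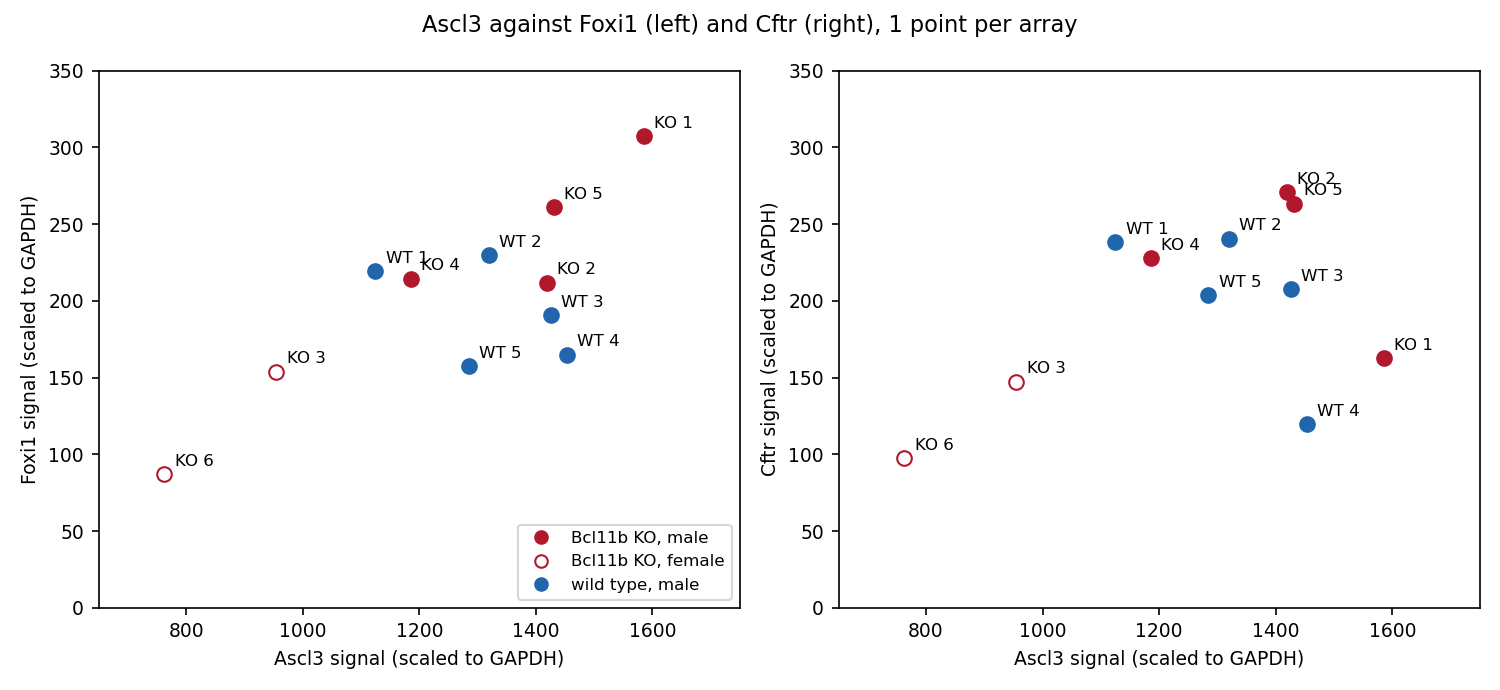
Signal of Foxi1 (left) and Cftr (right) against that of Ascl3, both scaled to GAPDH, with 1 labelled point per array (red KO, blue wild type, open circles female). KO 6 and KO 3 lie at the lower left of both panels, and without them Ascl3 and Foxi1 show little relation (r = 0.15).

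Whether the markers varied together between preparations was examined over the 36 pairs of the 9 genes, with group means removed. The pair Ascl3 and Foxi1 had a Pearson r of 0.82 (permutation test within groups, p = 0.0135, adjusted p = 0.218) and a Spearman rho of 0.69 (permutation p = 0.0549, adjusted p = 0.564) over 11 arrays. Without KO 3 and KO 6, the arrays farthest from the median of Ascl3, r was 0.15, so the relation rested on them. When the arrays were divided by their poly-A spike signal, r was 0.97 in the higher class (5 arrays, with KO 6) and 0.91 in the lower class (6 arrays, with KO 3). For Foxi1 and Cftr r was 0.70 and rho 0.59 (permutation p = 0.0326 and 0.116, adjusted p = 0.293 and 0.589), and r was 0.11 without the female preparations KO 3 and KO 6, 0.78 without KO 1 and KO 6, the arrays farthest from the median of Foxi1, 1.0 in the higher class and 0.13 in the lower class. The relation of Foxi1 and Cftr thus did not hold among the males or in the lower class. Ascl3 and Cftr had r = 0.50 and rho 0.42 (permutation p = 0.195 and 0.274, adjusted p = 0.633 and 0.804), with 0.96 and 0.22 in the classes and -0.55 without KO 3 and KO 6. Coch had r of 0.10 with Ascl3, 0.23 with Foxi1 and -0.18 with Cftr. Of the 36 pairs, 5 had an unadjusted permutation p under 0.05 for Pearson's r and 0 passed after adjustment. Ranked by r with Ascl3 among all tested probe sets, Foxi1 was in the top 0.181% and Cftr in the top 6.79%. Ranked by r with Foxi1, Cftr was in the top 3.16%, and ranked by r with Plcb2, Sh2d6 was in the top 5.29%. Foxi1 had rank 61 for Ascl3, so for each of these pairs other probe sets reached a higher r. The ranks were taken with KO 3 and KO 6 included, on which the r of Ascl3 and Foxi1 rested.

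The tuft-like markers were dim. Trpm5, the calcium-activated cation channel of taste and tuft cells, had 3 probe sets, of which 1 reached the minimum mean signal of 20. On it the KO arrays read 16 at the lowest, 25.3 at the median and 62 at the highest, and the wild type arrays 48.8, 15.7, 15.0, 34.0 and 34.7. The lowest arrays of both groups were under 20, the highest was KO 1, and the groups overlapped over most of their range. This gave a log2 change of 0.10 ± 0.28 (limma, SE; adjusted p = 0.99; 95% interval -0.48 to 0.69). The other probe sets of Trpm5 averaged 16.5 and 11.9 in KO against 14.3 and 12.7 in wild type and were not tested.

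Pou2f3 (Skn-1a), the factor without which Trpm5-positive microvillar cells are not made in mice, varied several-fold in both groups. In KO it read 9.2 at the lowest, 35.7 at the median and 77.7 at the highest, and in wild type 57.0, 56.3, 16.1, 37.4 and 32.8. Its highest array was KO 6 and its lowest KO 1, the reverse of Ascl3 and Foxi1. The log2 change was -0.085 ± 0.30 (limma, SE; adjusted p = 0.991; 95% interval -0.71 to 0.55). Between Ascl3 and Pou2f3 r was -0.73 and rho -0.57 (permutation p = 0.0182 and 0.094, adjusted p = 0.218 and 0.564), -0.53 without KO 3 and KO 6, and -0.67 and -0.75 in the higher and lower poly-A classes.

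Plcb2, the phospholipase C that acts between the receptor and Trpm5 and is also made by leukocytes, read 35.9 at the lowest, 57.2 at the median and 71.4 at the highest in KO. Its wild type signals were 81.2, 67.2, 60, 38.1 and 51.7, so that the highest array was a wild type one. The log2 change was -0.066 ± 0.20 (limma, SE; adjusted p = 0.99; 95% interval -0.48 to 0.35). Of the leukocyte markers 10 were tested and 0 passed, those of smallest p being the B cell receptor subunit Cd79a (0.59) and the Fc receptor subunit Fcer1g (0.30; log2 changes, limma, adjusted p = 0.776 and 0.839). Their summed signal was 4602 to 7774 in KO, highest on KO 3, against 4539 to 6283 in wild type. Csf1r alone gave 4573.6 of the sum on KO 3. The median log2 change was 0.20 and 9 of these 10 markers were positive, beside 0.047 and 60.4% over all tested probe sets. Their part in the Plcb2 signal was not tested.

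Avil encodes advillin, an actin-binding protein of microvilli and of sensory neurons. It read 4.4 at the lowest, 27.05 at the median and 49.2 at the highest in KO, against 46.6, 31.7, 19.0, 42.7 and 49.4 in wild type. KO 1, KO 2 and KO 5 lay below every wild type array, and KO 3, KO 4 and KO 6 lay within the wild type range. Avil had a log2 change of -0.40 ± 0.28 (limma, SE; adjusted p = 0.922; 95% interval -0.996 to 0.20), and it stayed negative under all 25 alternatives that could be fitted. Some of these could not alter the log2 change or repeated another alternative. Avil averaged 43.8 in female and 18.5 in male KO preparations, and Pou2f3 60.4 and 27.8, with female minus male terms of 0.86 ± 0.36 and 0.84 ± 0.39 (limma, SE; adjusted p = 0.553 and 0.606). Ascl3 and Avil had r = -0.71 and rho -0.85 (permutation p = 0.0446 and 0.0148, adjusted p = 0.321 and 0.533), -0.56 without KO 3 and KO 6, and -0.77 and -0.79 in the higher and lower poly-A classes.

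Sh2d6, an SH2 domain adaptor found in tuft cells, was the member of smallest p. Its KO signals were 25.5 at the lowest, 47.75 at the median and 63.8 at the highest, and its wild type signals were 46.0, 19.0, 31.3, 15.7 and 30.6. On 3 KO arrays the signal exceeded that of every wild type array, while KO 1 (45.1), KO 2 (45.2) and KO 3 (25.5) lay inside the wild type range. The means were 47.6 ± 12.9 in KO (SD, n = 6) and 28.5 ± 12.0 in wild type (SD, n = 5), a log2 change of 0.53 ± 0.22 (limma, SE; unadjusted p = 0.0294, adjusted p = 0.619; 95% interval 0.060 to 0.996). It stayed positive under all 25 alternatives, from 0.27 to 0.77, and passed under none. Here too some alternatives could not alter the log2 change or repeated another. Plcb2 and Sh2d6 had r = 0.78 and rho 0.68 (permutation p = 0.00973 and 0.0369, adjusted p = 0.218 and 0.564), 0.46 without wild type 4 and KO 3, and 0.59 and 0.89 in the higher and lower poly-A classes. The other pairs of tuft-like markers had r from -0.34 (Plcb2 and Avil) to 0.44 (Trpm5 and Avil, and Pou2f3 and Plcb2).

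**Figure D3:**
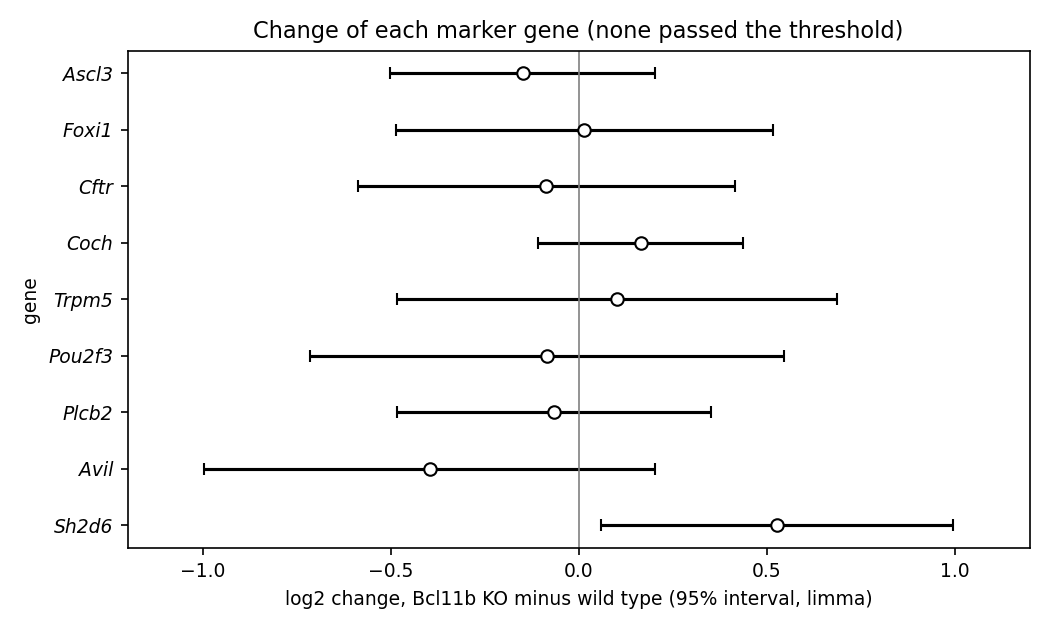
Log2 change (KO minus wild type of log2(signal + 16), horizontal axis) of the tested probe set of each of the 9 genes, with its 95% interval from limma; open points did not pass the threshold. The changes run from -0.40 (Avil) to 0.53 (Sh2d6), and only the interval of Sh2d6 leaves out 0.

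Of 20 other listed genes of ionocytes, 17 had a probe set of their own and 16 were tested. Of these 1 rose and 0 fell, beside 0.244% and 0.211% of all tested probe sets. Their median log2 change was 0.22 and 11 of the 16 were positive, beside 0.047 and 60.4% over all tested probe sets. The one that rose was Atp6v1c2, a C subunit of the vacuolar proton pump that is found in ionocytes and in acid-secreting cells of the kidney. It read 1237.7 at the lowest, 1580.25 at the median and 2314.2 at the highest in KO, against 1082.7, 990.8, 927.7, 800.4 and 870.8 in wild type. Every KO array was above every wild type array. Its log2 change was 0.77 ± 0.15 (limma, SE; adjusted p = 0.03), and it was 0.549 and 0.929 within the higher and lower poly-A classes. It no longer passed with males only (0.769, adjusted p = 0.0756) or when any 1 of KO 1, KO 4, KO 6 and wild type 2, 3, 4 and 5 was left out (0.657 to 0.787, adjusted p of 0.0526 to 0.112; over all alternatives, adjusted p of 0.00603 to 0.599).

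Further pump subunits of the list did not pass. Atp6v0d2 had a log2 change of 0.43 ± 0.22, Atp6v0a4 0.28 ± 0.25, Atp6v1b1 0.27 ± 0.37 and Atp6v1e1, which most cells make, 0.046 ± 0.098 (limma, SE; adjusted p of 0.776 to 0.987). These 4 subunits, Atp6v0d2, Atp6v0a4, Atp6v1b1 and Atp6v1e1, are not among the genes that the naming rule picked, and their values were known when they were chosen.

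Npy, neuropeptide Y, a peptide made by some olfactory microvillar cells and by ensheathing glia, was the next by p. It read 27.3 at the lowest, 261.55 at the median and 428.3 at the highest in KO, against 96.9, 80.1, 94.1, 53.0 and 126.3 in wild type. KO 3, KO 4, KO 5 and KO 6 lay above all wild type arrays, KO 1 within their range and KO 2 below it. Npy had a log2 change of 1.01 ± 0.45 (limma, SE; adjusted p = 0.666), and did not pass. It passed under 2 of the 26 alternatives, at 1.47 without KO 2 (adjusted p = 0.0227) and at 1.86 within the higher poly-A class (adjusted p = 0.0171).

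**Figure D4:**
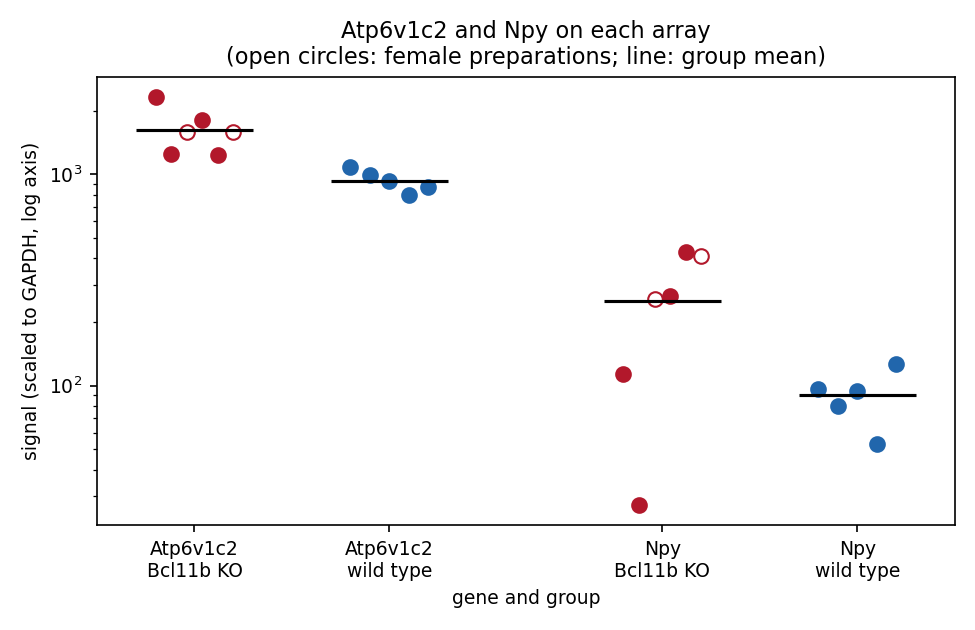
Signal of Atp6v1c2 and Npy on each array (scaled to GAPDH, log axis), with KO left of wild type; open circles are female preparations and lines are group means. All KO arrays are above all wild type arrays for Atp6v1c2 (lowest KO 1237.7, highest wild type 1082.7), whereas for Npy KO 2 (27.3) lies below the wild type arrays.

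Among other signalling genes of tuft cells, 14 were listed, 13 had a probe set of their own and 6 were tested. Choline acetyltransferase (Chat), interleukin 25 (Il25), the sweet and umami receptor subunit Tas1r3 and Trpc6 were among those below the minimum signal, so the list says little about these cells at this sensitivity. Gng13, a G protein gamma subunit, fell and 0 rose, beside 0.211% and 0.244% of all tested probe sets. Gng13 belongs to taste and tuft cells and also to OSNs, where it is a mature marker. It read 578.6 at the lowest, 630.3 at the median and 785.5 at the highest in KO, against 986.5, 1307.5, 1418.0, 1070.5 and 1056.3 in wild type, a log2 change of -0.82 ± 0.13 (limma, SE; adjusted p = 0.00512), with no overlap between the groups. It did not pass within the higher or lower poly-A class alone (-0.88 and -0.74, adjusted p = 0.166 and 0.393; over all alternatives 0.00106 to 0.393). Its dimmer probe set had -0.24 ± 0.25 on that scale (adjusted p = 0.967). Il17rb, a receptor for interleukin 25, showed 0.23 ± 0.17 on the log2 scale (SE; adjusted p = 0.922, limma). Itpr3, an inositol trisphosphate receptor, which was chosen with its value known, had 0.22 ± 0.19 (limma, adjusted p = 0.952).

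Of 19 listed transcription factors, adaptors and cytoskeletal genes of tuft cells 9 were tested, and 0 passed, with a median log2 change of 0.019. Those of smallest p were Sox4, an SRY-related factor also of OSN precursors (0.34 ± 0.15), and Krt18, a keratin of simple epithelia (0.12 ± 0.11; limma, SE; adjusted p = 0.666 and 0.958). Of 7 genes for eicosanoid synthesis 6 were tested and 0 passed. The inducible cyclooxygenase Ptgs2, which many cell types can make, came nearest. It read 45.1 at the lowest, 123.4 at the median and 242.4 at the highest in KO, against 260.6, 425.4, 454.2, 252.6 and 247.9 in wild type, so that all KO arrays were below all wild type arrays. Its log2 change was -1.35 ± 0.30 (limma, SE; adjusted p = 0.0525). It passed under 7 alternatives, among them without KO 2 (-1.13, adjusted p = 0.0483) and without KO 4 (-1.54, adjusted p = 0.0119), over a range of 0.0113 to 0.617 under all 26. Its dimmer probe set had a log2 change of -0.54 ± 0.23 (limma, adjusted p = 0.612). Alox5, the 5-lipoxygenase that starts leukotriene synthesis, had -0.36 ± 0.20 (adjusted p = 0.838).

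**Figure D5:**
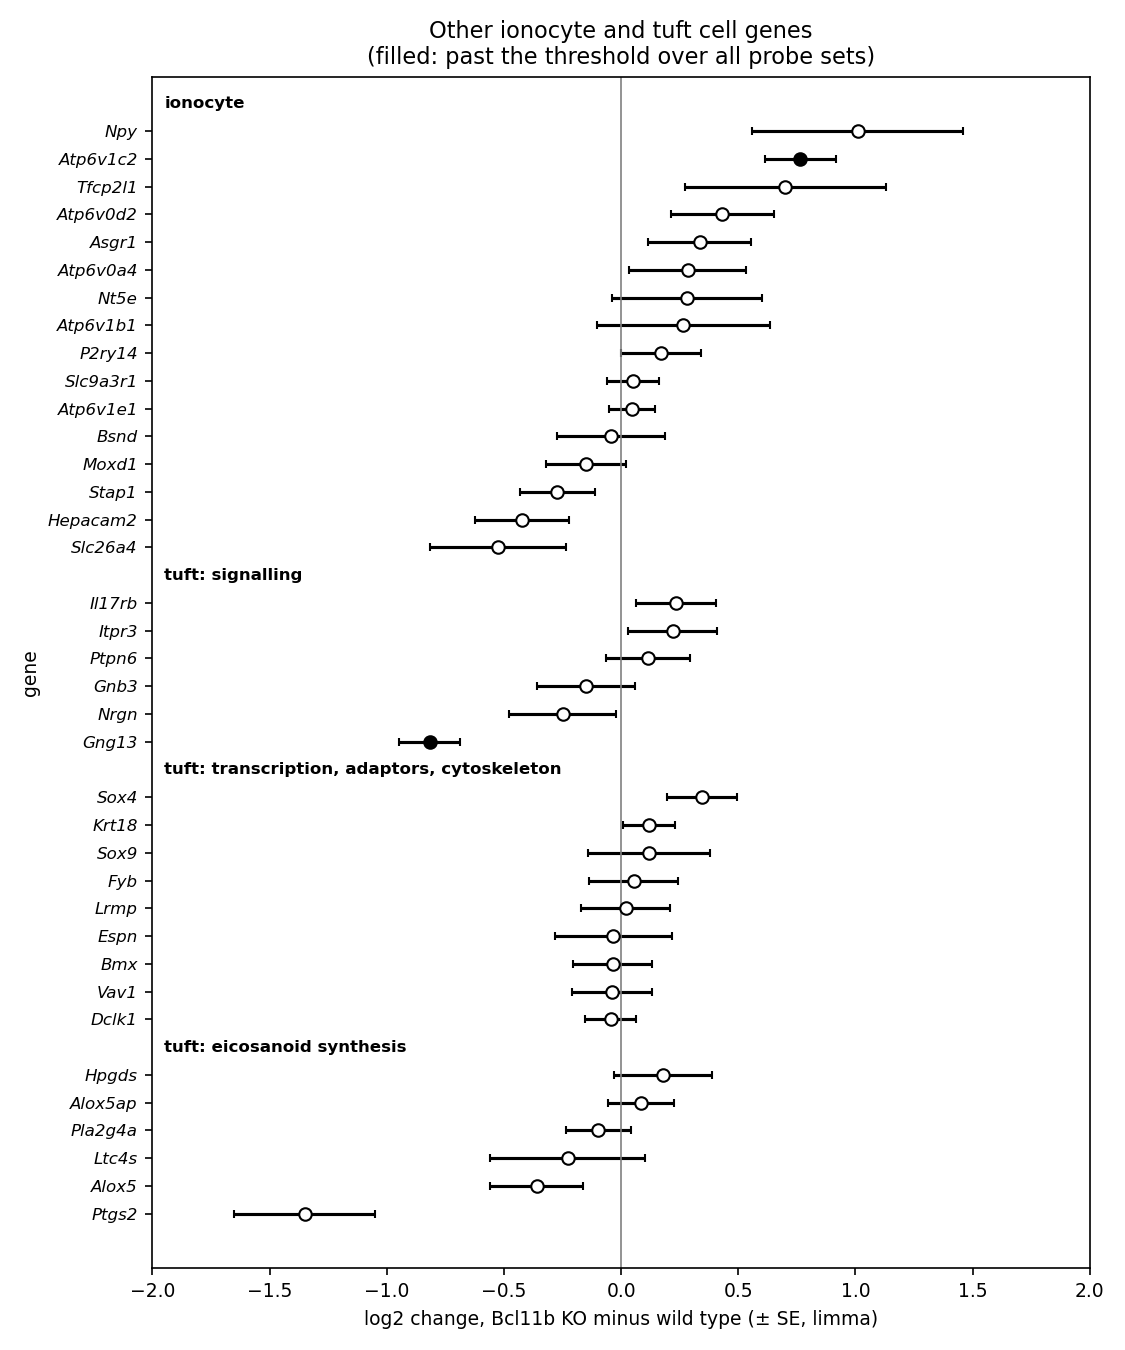
Log2 change (KO minus wild type of log2(signal + 16), ± SE from limma) of the tested ionocyte and tuft cell genes other than the 9 members, 1 probe set per gene, grouped by list; filled points passed the threshold. Atp6v1c2 (0.77) and Gng13 (-0.82) passed, and Ptgs2 (-1.35) did not.

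Of 15 listed paralogs of the members 7 were tested and 0 passed. The octamer factor Pou2f2, a paralog of Pou2f3 best known in B cells, had a log2 change of -0.67 ± 0.24, and Plcb3, a phospholipase C paralog of Plcb2, had 0.46 ± 0.21 (limma, SE; adjusted p = 0.449 and 0.698). Markers of neighbouring cells did not pass either, with 7 sustentacular, 6 respiratory, 3 basal cell and 6 immature OSN genes tested. The sustentacular genes of smallest p were Cyp1a2, a cytochrome, and Muc2, a mucin (-0.46 and 0.44 on the log2 scale; adjusted p = 0.712 and 0.904). The respiratory ones were Muc5b, a gel-forming mucin, and Bpifa1, a secreted airway protein (0.50 and 0.066; adjusted p = 0.5 and 0.958). The basal cell ones were the keratin Krt14 and the factor Trp63 (-0.079 and 0.068; adjusted p = 0.987 and 0.99), and the immature OSN ones were the G protein subunits Gnas and Gng8 (0.17 and -0.21; adjusted p = 0.619 and 0.9).

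The genes most like the brightest member of each cell type were sought as the smallest mean absolute difference between centred log2(signal + 16) profiles over the 11 arrays, among probe sets that varied at least as much. For Coch these were Rd3, Iqck and Olig1, at 0.08, 0.09 and 0.09 log2 units. For Plcb2 they were 2300009A05Rik, Sf1 and Il18, at 0.09, 0.09 and 0.10. None of the other members was among them, which says little, as only 3 were taken from 20306 and 14916 candidates. Group means were not removed from these profiles.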

How the data were processed

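Affymetrix Mouse Genome 430 2.0 arrays were hybridized with cRNA made in repeated rounds of amplification, and the file deposited by the authors holds linear intensities for each probe set. The authors scaled each array linearly to a GAPDH probe set (10000 on every array) with GCOS, named in the submitters' processing notes (its version is not given in the sources used here), so a difference in GAPDH would move all values. Genes were named through the platform annotation. Control probe sets and those with a mean signal under 20 were left out, which left 33662. Log2(signal + 16) was compared between KO and wild type in limma 3.58.1 (R 4.3.3; lmFit and eBayes with an intensity trend, no covariate), with Benjamini-Hochberg adjustment over all tested probe sets and a threshold of 0.05. Other genes were represented by their tested probe set of highest mean signal. Pair correlations used 100000 permutations within groups (numpy 2.4.6). The study's text describes the preparations as independent and from as many mice as arrays; labels give no litter or hybridization date. The number of arrays limits the precision. Named were Bcl11b, all members, genes of each list past the threshold with its 2 of smallest p, and the 3 most like the brightest member of each kind. Members and lists were chosen with earlier results of these data known. In data simulated for this comparison over 33662 probe sets, 96% of changes of 2, 68% of 1 and 8% of 0.5 on the log2 scale were recovered. Alternatives were other scalings, pseudocounts, filters and moderation, array weights, sex, replicate number and poly-A class in the fit, and leaving out each array.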

Additional observations from a re-analysis of the deposited data

Results flagged for a closer look

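Of 24 groups of arrays examined (both groups for each of the 12 member probe sets), 1 held an array far from the others, and chance gives about 1 in 20. It was KO 6 on the dim probe set of Cftr, with a signal of 8.8 against 1.7 for the next KO array (gap over the range of the group 0.835). Both values are below the minimum mean signal of 20.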

How the results depend on the processing

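The count of members past the threshold was 0 in both directions under all 26 alternatives. Of 229 member values 201 kept their sign and 28 turned it, none of them past the threshold. These values are not all separate checks. Other filters and other moderation leave a log2 change as it is. Sex as a covariate gives the same change as males only, because all females were KO. The replicate block gives the same change as leaving out KO 6. With males only or sex as a covariate Ascl3 changed by 0.0857 and Cftr by 0.193. Within the class of lower poly-A controls Cftr changed by 0.11. Foxi1 changed by -0.0325 on the array median, -0.0419 after quantile normalization, -0.146 on spiked controls and -0.36 within the higher poly-A class. On spiked controls, where the median of all probe sets was -0.108, Coch changed by -0.00969 and Trpm5 by -0.0121. Leaving out 1 array at a time gave -0.112 to 0.219 for Foxi1, -0.248 to 0.0785 for Cftr, -0.0445 to 0.243 for Trpm5, -0.269 to 0.116 for Pou2f3 and -0.179 to 0.0318 for Plcb2. The correlation of Ascl3 and Cftr was -0.55 with males only, an alternative chosen after seeing the data, which leaves out the same arrays (KO 3 and KO 6) as the removal of the 2 farthest and is not a separate check. The cause was not tested.

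Of the other listed genes 1 was higher and 1 lower. The count of higher genes was 0 on spiked controls, without the trend, with males only, with sex as a covariate, with the replicate number as a block and within the lower poly-A class. Within the higher class it was 1, but the gene was Npy (1.86) and not Atp6v1c2 (0.549). The count of lower genes was 2 on the array median, after quantile normalization, on spiked controls, with a pseudocount of 64 and with poly-A class as a covariate, where Ptgs2 was added, and 0 with the replicate number as a block and within either poly-A class. Leaving out 1 array gave 0 to 2 higher and 1 to 2 lower. Within the classes, which hold fewer arrays, 31 and 39 probe sets in all passed, against 153 over all arrays. The total was 91 with the block, 293 after quantile normalization, 289 on spiked controls, 345 with array weights and 85 to 212 with 1 array left out. Arrays with the same replicate number in both groups did not deviate together (correlations of -0.283 to 0.009), so the number pairs nothing. KO 6 alone had replicate number 6, so the block gave the same log2 changes as leaving out KO 6. It is thus not a separate check of them. With the block Cftr changed by 0.0785, Gng13 by -0.784 (limma, adjusted p = 0.0727) and Atp6v1c2 by 0.767. With a minimum mean signal of 100 only 4 members remained, all ionocyte-like, so the tuft-like markers rest on dim signals.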

Other observations

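Tfcp2l1, a grainyhead-like factor found in ionocytes and in ducts of kidney and salivary gland, varied several-fold among the KO preparations. It lies outside the rule for named genes and was chosen after its values were seen. It read 313.9 at the lowest, 1342.25 at the median and 2304.1 at the highest in KO, against 984.3, 552.4, 496.1, 482.4 and 747.5 in wild type. KO 2, KO 4 and KO 5 lay above all wild type arrays and KO 3 lay below them. Its log2 change was 0.70 ± 0.43 (limma, SE; adjusted p = 0.874).

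Hepacam2, an adhesion molecule of the immunoglobulin family that marks ionocytes and tuft cells, was also chosen after its values were seen. Its KO signals were 131.7 at the lowest and 335.8 at the highest, against 289.9 to 395.5 in wild type. KO 3 (131.7), KO 4 (198.2), KO 5 (261.9) and KO 6 (224.4) lay below all wild type arrays, and KO 1 and KO 2 within their range. Hepacam2 had a log2 change of -0.42 ± 0.20 (limma, SE; adjusted p = 0.718).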
